A study of Rattus norvegicus with 56 samples.

Results

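The genes described here are markers of the layers of the cerebral cortex, read in hippocampus and parietal cortex of rats after theta burst stimulation or a sham procedure. Of the 9 genes Cux1, Cux2, Rorb, Rasgrf2, Lamp5, Fezf2, Bcl11b, Tbr1 and Foxp2, 8 were found on the array through the RefSeq name of a probe's transcript. No probe was named for Cux1, which is not described further. The 8 genes carried 10 of the 45598 probes, with 2 probes each for Bcl11b and Foxp2, among 16581 genes named in all. Where a gene had 2 probes, the brighter was used and the other is given beside it.

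All animals were male Long-Evans rats. The young group (Y) was aged 6 to 7 months and the aged groups 26 to 27 months. A water maze test of learning had split the aged rats into cognitively unimpaired (AU) and impaired (AI) sets. Intermittent theta burst stimulation (iTBS) belongs to the methods of transcranial magnetic stimulation and delivers brief trains of pulses from a coil above the head. Sham animals had the coil held away from the head. All of them, sham animals included, were lightly anesthetized with isoflurane, sedated with dexmedetomidine and given Antisedan afterwards, and tissue was taken 48 h after stimulation. Sham groups held 4 animals each (Y_Sham, AU_Sham, AI_Sham). Of the stimulated groups, Y_iTBS held 4 animals, AU_iTBS 5 and AI_iTBS 3, and both regions of each of the 24 animals were hybridized. The tissue was dissected from neocortex and dorsal hippocampus without sorting of cells, so that fewer cells of a layer and less RNA per cell cannot be told apart. On the first arrays, 69.0% to 76.2% of the probes were well above background. Arrays were scanned in batches on 3 days, and 15 animals had their pair of arrays in batch 1 while the remaining 9 had theirs later. In 8 of the later animals the hippocampus was scanned on the third day and the cortex on the second. Region and scan day cannot be told apart in them. The third AU_iTBS animal had both regions scanned on the second day. Later scans held 1 animal each of Y_iTBS, AU_Sham, AI_Sham and AI_iTBS, 2 of Y_Sham and 3 of AU_iTBS.

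The neocortex is built of layers of neurons that differ in their targets, and each layer is known by transcription factors and surface proteins that its neurons keep into adult life. Upper layer neurons send axons within the cortex, layer 4 receives input from the thalamus, layer 5 holds neurons that project to the brainstem and spinal cord, and layer 6 neurons project back to the thalamus. Several of these genes are also used outside the neocortex. Bcl11b is known in hippocampal and striatal neurons, Foxp2 in striatum and thalamus, and Lamp5 in a class of inhibitory neurons.

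RefSeq promoter sequences of assembly GRCr8 were matched for 7 of the 9 genes, and none was matched for Bcl11b or Foxp2. Those of Cux2, Rasgrf2 and Tbr1 are shown because Cux2 had its highest correlations across the cortex samples with these 2 genes, as given further on. Each line gives the 250 bases before the annotated start, 5′ to 3′ on the gene's strand. Cux2 lies at chr12:40179032-40179281 (+ strand), Rasgrf2 at chr2:25096612-25096861 (- strand) and Tbr1 at chr3:66759553-66759802 (+ strand). Capitals mark matches, on either strand, to CCAAT (the CCAAT box), ATCGAT (a motif of Cut homeodomain proteins, the family of Cux2 itself), TAATTA (a general homeodomain motif) and GGGCGG (the GC box).
Cux2: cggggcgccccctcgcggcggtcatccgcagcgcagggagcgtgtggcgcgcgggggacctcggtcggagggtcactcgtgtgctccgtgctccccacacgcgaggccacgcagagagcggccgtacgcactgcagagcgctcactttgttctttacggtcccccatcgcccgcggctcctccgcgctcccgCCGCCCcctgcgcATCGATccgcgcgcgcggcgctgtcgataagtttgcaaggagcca
Rasgrf2: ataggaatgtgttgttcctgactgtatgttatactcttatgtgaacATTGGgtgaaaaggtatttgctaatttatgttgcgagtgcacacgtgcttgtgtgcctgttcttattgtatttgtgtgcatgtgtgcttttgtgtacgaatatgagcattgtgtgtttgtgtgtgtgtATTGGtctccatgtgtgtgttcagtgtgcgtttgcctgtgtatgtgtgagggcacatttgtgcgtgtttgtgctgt
Tbr1: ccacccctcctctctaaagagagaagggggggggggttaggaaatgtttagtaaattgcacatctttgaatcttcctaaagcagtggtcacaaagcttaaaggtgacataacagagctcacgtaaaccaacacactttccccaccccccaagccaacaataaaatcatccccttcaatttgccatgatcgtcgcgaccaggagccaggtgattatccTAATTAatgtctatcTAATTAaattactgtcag
The Cux2 window held ATCGAT at positions -45 to -40 from the start and a GC box at -58 to -53. That of Rasgrf2 held 2 CCAAT boxes, read on the other strand, and that of Tbr1 held TAATTA at -33 to -28 and -18 to -13. No match overlapped another. Among all 33469 windows of the same length, 0.75% held ATCGAT, 4.86% TAATTA, 34.0% CCAAT and 30.5% GGGCGG. The 3 windows also differed in base content, with 39 CG pairs in Cux2, 5 in Rasgrf2 and 4 in Tbr1 against a median of 5 over all windows. None of these 4 motifs was shared by the 3 windows.

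Parietal cortex and hippocampus were compared first, within each animal, to see how far these genes set the regions apart. All 8 genes differed, 6 being higher in cortex and 2 in hippocampus (limma, adjusted p under 0.05, n = 24 animals). The background was wide, since 49.4% of the 33770 probes tested were called between regions, 23.2% being higher in cortex and 26.3% higher in hippocampus. The median absolute difference was 1.22 for the 8 genes and 0.23 for all probes, in log2 units. All signals below are normalized log2 signals, on which 0 is the mean of an array, and differences are on the same log2 scale.

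**Figure D1:**
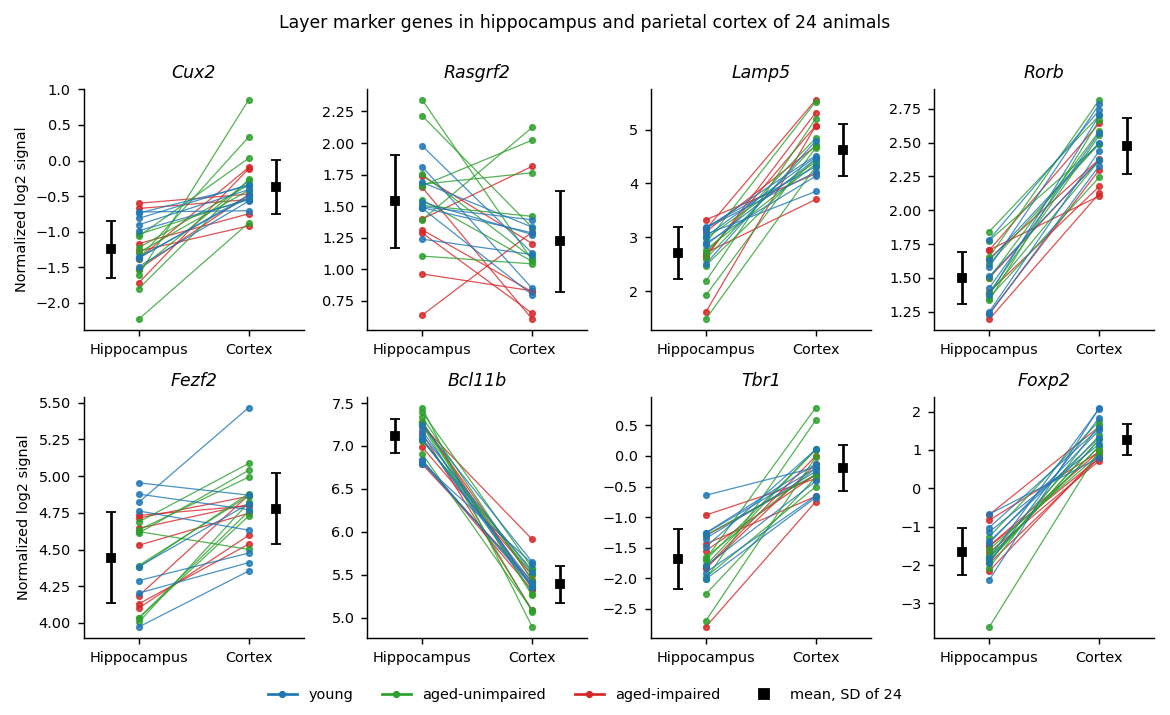
Normalized log2 signal of the 8 genes in hippocampus and parietal cortex, with 1 line per animal (24 animals, colored by age and cognitive status) and squares with bars for the mean and SD of the 24. Lines rise from hippocampus to cortex in all 24 animals for Cux2, Lamp5, Rorb, Tbr1 and Foxp2 and fall in all 24 for Bcl11b.

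Among the upper layer genes, Lamp5, which encodes a membrane protein of the lysosome-associated family, had the largest difference. Its signal (NM_001014183) ran from 1.48 to 3.32 in hippocampus with a median of 2.81, and from 3.70 to 5.55 in cortex with a median of 4.50. The regions did not overlap, and the cortex exceeded the hippocampus in each of the 24 animals. The difference was 1.88 ± 0.13 (SE), which is 3.67-fold (limma adjusted p = 1.43e-10). Rorb, an orphan nuclear receptor known for layer 4 (NM_001270958), ran from 1.19 to 1.84 in hippocampus and from 2.11 to 2.82 in cortex. Its difference of 0.97 ± 0.05 (SE) had the smallest error of the 8 genes, and the regions again did not overlap. Cux2, a Cut homeodomain factor of upper layer neurons (NM_001271380), ran from -2.23 to -0.60 in hippocampus with a median of -1.29, and from -0.92 to 0.85 in cortex with a median of -0.45. The ranges overlapped, but within animals the cortex was higher in 24 of 24, by 0.02 to 2.47. The mean difference of Cux2 was 0.85 ± 0.11 (SE; limma adjusted p = 1.15e-06).

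Rasgrf2, an exchange factor for Ras and Rac GTPases used as a marker of layers 2 and 3, was the upper layer gene that was lower in cortex. The signal (NM_053721) ran from 0.64 to 2.34 in hippocampus with a median of 1.52, and from 0.60 to 2.12 in cortex with a median of 1.17. The regions overlapped almost fully, and the cortex was higher in 5 of 24 animals. The difference was -0.32 ± 0.11 (SE; limma adjusted p = 0.0178). It was -0.49 ± 0.40 (SD, n = 15) in animals of scan batch 1 and -0.03 ± 0.62 (SD, n = 9) in those scanned later. The call was lost with the slide of the cortex array as a random block (limma adjusted p = 0.183) and without the second AI_iTBS animal (limma adjusted p = 0.058).

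Deep layer genes moved in both directions. Foxp2, a forkhead factor of layer 6 neurons (NM_001271104), ran from -3.62 to -0.67 in hippocampus with a median of -1.70, and from 0.72 to 2.10 in cortex with a median of 1.21. The regions did not overlap, and the difference of 2.91 ± 0.14 (SE; 7.51-fold; limma adjusted p = 2.30e-13) was the largest of the 8 genes. The second Foxp2 probe was well above background in 19 of 24 cortex samples and in none of the hippocampus samples. With the hippocampus raised to the lowest signal that was well above background on each array, that probe was at least 2.44-fold higher in cortex. Tbr1, a T-box factor of corticothalamic neurons (NM_001191070), ran from -2.80 to -0.64 in hippocampus with a median of -1.70, and from -0.75 to 0.79 in cortex with a median of -0.23. Only the extremes overlapped, and the difference was 1.47 ± 0.11 (SE; limma adjusted p = 2.46e-10).

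Bcl11b, a zinc finger factor of layer 5 neurons also known as Ctip2 (NM_001277287), was higher in hippocampus. Its signal ran from 6.79 to 7.45 in hippocampus with a median of 7.14, and from 4.89 to 5.91 in cortex with a median of 5.40. The regions did not overlap, and the hippocampus was higher in each of the 24 animals. The difference was -1.70 ± 0.06 (SE), so the signal was 3.25-fold lower in cortex (limma adjusted p = 7.00e-16). The second probe of Bcl11b gave -1.80 ± 0.08 (SE). Fezf2, the zinc finger factor that specifies subcerebral projection neurons and acts upstream of Bcl11b in development (NM_001107251), differed little. It ran from 3.97 to 4.95 in hippocampus and from 4.35 to 5.47 in cortex, and the cortex was higher in 20 of 24 animals. The Fezf2 difference of 0.33 ± 0.06 (SE) is 1.25-fold (limma adjusted p = 8.31e-05).

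The size of the region difference varied with the scan batch for some genes. Cux2 differed by 0.64 ± 0.41 (SD, n = 15) in animals of batch 1 and by 1.27 ± 0.66 (SD, n = 9) in those scanned later. Tbr1 differed by 1.23 ± 0.44 (SD, n = 15) and 1.94 ± 0.56 (SD, n = 9), and Fezf2 by 0.22 ± 0.27 (SD, n = 15) and 0.52 ± 0.19 (SD, n = 9). The part of the scan batch in these values was not tested, and every gene kept its direction within each batch. In 8 of the 9 animals scanned later, hippocampus and cortex were scanned on different days. The region difference itself did not change by any call with age in sham animals or with iTBS. For the age contrast the 8 estimates ran from -0.56 to 0.65 (smallest adjusted p = 0.771), and for the iTBS contrast from -0.34 to 0.35 (smallest adjusted p = 0.999). Over all probes 0.00296% were called for the first and none for the second, where 903 of 33770 had an unadjusted p under 0.05.

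Other layer genes gave a mixed picture between regions. Of 9 other upper layer genes, 2 were higher in cortex and 3 in hippocampus, with a median difference of -0.04 against -0.02 for all probes. The genes higher in cortex were the POU factor Pou3f2 (1.59 ± 0.08 SE) and Whrn (0.84 ± 0.07 SE). Scnn1a, an epithelial sodium channel subunit used as a marker of layer 4, was higher in hippocampus (-0.66 ± 0.09 SE), as were Unc5d (-0.54 ± 0.08 SE) and Lhx2 (-0.25 ± 0.08 SE). Of 8 other layer 5 genes, 4 were higher in cortex and none in hippocampus, with a median of 0.23. They were Npr3, the natriuretic peptide clearance receptor (1.93 ± 0.16 SE), Ldb2 (0.72 ± 0.10 SE), Parm1 (0.40 ± 0.08 SE) and S100a10 (0.30 ± 0.08 SE). Of 10 layer 6 and 6b genes, 5 were higher in cortex and 2 in hippocampus, with a median of 0.74. Cplx3, a complexin of subplate neurons, had the largest of these (2.07 ± 0.35 SE), with Nxph4 (1.19 ± 0.14 SE), Ccn2 (1.11 ± 0.06 SE), Syt6 (0.97 ± 0.11 SE) and Sox5 (0.69 ± 0.05 SE) beside it. Ntsr1, the neurotensin receptor known for layer 6, was higher in hippocampus (-0.59 ± 0.19 SE), as was Zfpm2 (-0.45 ± 0.07 SE).

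The region labels were checked with markers of other cells. Of 7 hippocampus genes, 5 were higher in hippocampus, among them C1ql2 of the dentate gyrus (-4.60 ± 0.11 SE) and Fibcd1 of CA1 (-4.29 ± 0.09 SE). Prox1 was not called, and Spink8 was higher in cortex (0.40 ± 0.10 SE). Of 6 choroid plexus genes, 5 had the higher signal in hippocampus, with a median difference of -1.74. Inhibitory neuron genes were higher in cortex in 6 of 8 cases, with a median of 0.66, a class that also holds Lamp5 neurons. Of 7 genes of striatal medium spiny neurons, which also express Bcl11b and Foxp2, 3 were higher in cortex and 1 in hippocampus, with a median of 0.27. Their part in the differences of the layer genes was not tested.

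The effect of iTBS was compared with sham in each age group and region. In none of the 48 comparisons of the 8 genes, over 3 groups of animals and 2 regions, was a gene called, and none had an unadjusted p under 0.05 (limma, smallest adjusted p = 0.590). The array as a whole was similar, with no probe called in 5 of the 6 comparisons and 0.00613% in the AI cortex. Unadjusted p-values under 0.05 were reached by 633 to 1467 of 32503 probes in hippocampus and by 882 to 2732 of 32613 in cortex. The selection rule of the study, as rerun here and below, called none of the 8 genes either. It needs a mean z-score above 0, so Cux2 in both regions and Tbr1 and Foxp2 in hippocampus could not be called. Nor could Tbr1 in cortex of Y or AI animals. Of all probes the rule called 0.13%, 0.0265% and 0.0575% in hippocampus of Y, AU and AI animals and 0.0884%, 0.053% and 0.0906% in cortex. In young animals the rerun called 59 probes in hippocampus and 40 in cortex, far fewer than the changed genes that the study itself reported. For aged animals, not split there by cognitive status, the study reported far fewer changed genes than for young ones. In AU and AI animals the rerun called 12 and 26 probes in hippocampus and 24 and 41 in cortex. By its lead probe no gene had stimulated and sham groups that did not overlap, as was so in the same order for 3.13%, 0.474% and 2.36% of probes in hippocampus and 1.56%, 1.64% and 4.13% in cortex. Of the 48 estimates, 25 lay above 0 and 23 below, from -0.42 to 0.60, with standard errors of 0.12 to 0.43. At this number of animals the intervals were wide, the 95% bounds running from -1.02 to 1.38 over all 48. The highest estimate was that of Foxp2 in AU hippocampus (0.60 ± 0.37 SE), where the 5 stimulated animals had -1.26, -1.59, -1.73, -2.07 and -1.81 and the 4 sham animals -1.91, -1.79, -3.62 and -1.87. The third sham animal alone was far below the rest. The dim second probe of Foxp2 had groups that did not overlap in AU cortex, with sham animals from -1.67 to -1.53 and stimulated animals from -1.48 to -1.17, but the difference of 0.28 ± 0.34 (SE) was not called (limma adjusted p = 0.769).

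**Figure D2:**
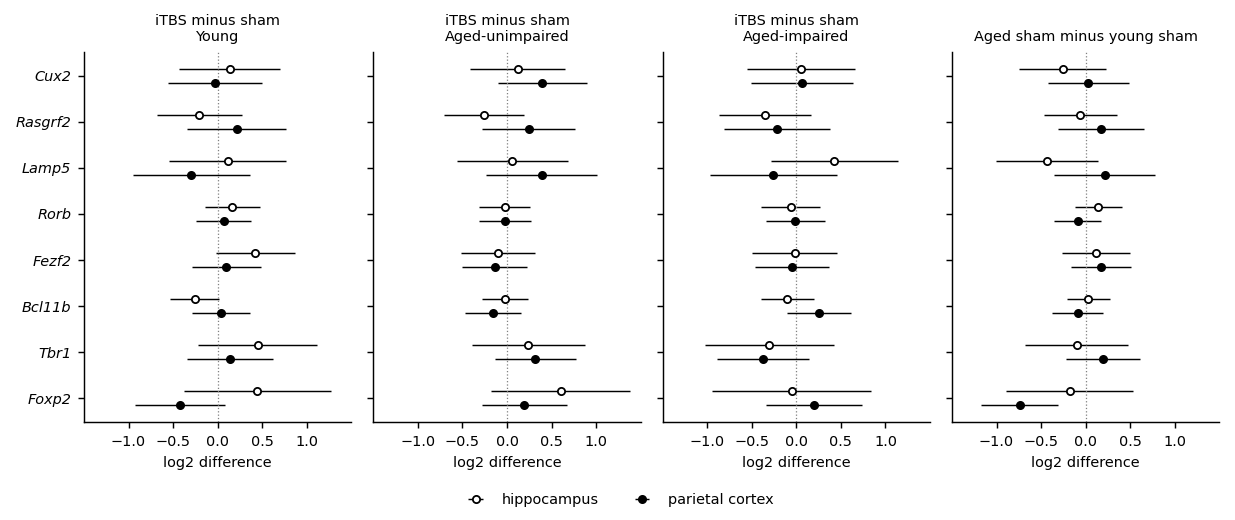
Difference in normalized log2 signal of the 8 genes for iTBS minus sham in young, aged unimpaired and aged impaired animals and for aged minus young sham animals, in hippocampus (open) and parietal cortex (filled). Bars are 95% intervals of the limma fit, and of all those drawn the only 1 that leaves out 0 is that of Foxp2 in cortex for age, at -0.74.

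The smallest unadjusted p-values among these were in young animals. Fezf2 in hippocampus was 4.20, 3.97, 4.29 and 4.82 in Y_Sham and 4.38, 4.76, 4.95 and 4.88 in Y_iTBS. All 4 stimulated animals lay above the sham mean, but the groups overlapped through the fourth sham animal. The difference was 0.42 ± 0.21 (SE; limma unadjusted p = 0.0591, adjusted p = 0.931). Sham animals 1 and 2 and stimulated animal 1 were scanned later, and Fezf2 in hippocampus was lower in later samples. With the scan batch as a covariate the difference was 0.30 ± 0.13 (SE; limma unadjusted p = 0.0298, adjusted p = 0.997). Within scan batch 1 it was 0.31 ± 0.19 (SE; 3 stimulated and 2 sham animals). The aged iTBS effect on Fezf2 in hippocampus minus the young effect, which uses the same young animals, was -0.48 ± 0.26 (SE; limma adjusted p = 0.801). Bcl11b in hippocampus was 7.08, 7.25, 7.18 and 7.09 in Y_Sham and 7.13, 6.81, 6.84 and 6.80 in Y_iTBS, with 3 of the 4 stimulated animals below every sham animal. The difference of Bcl11b was -0.26 ± 0.13 (SE; limma adjusted p = 0.931). Its second probe lay on the other side of 0, at 0.42 ± 0.36 (SE). In the same young hippocampus samples, list means overlapped between groups for astrocyte, oligodendrocyte, microglia, inhibitory neuron, thalamic, hippocampus and other layer 5 genes. Markers of some other cells were apart. The mean of 6 choroid plexus genes ran from 0.95 to 2.30 in Y_Sham and from -0.27 to 0.80 in Y_iTBS, and that of 7 striatal genes from 2.47 to 2.95 and from 3.11 to 3.23, with no gene of either list called. That of the 10 other layer 6 and 6b genes was also apart, though barely, at 0.988 to 1.420 in Y_Sham and 1.422 to 1.667 in Y_iTBS. The part of these lists in the Fezf2 and Bcl11b values was not tested. Foxp2 in cortex was 1.56, 2.10, 1.52 and 1.85 in Y_Sham and 2.08, 0.80, 1.15 and 1.32 in Y_iTBS. Its difference was -0.42 ± 0.24 (SE; limma adjusted p = 1.00), and the groups overlapped through the first stimulated animal. The other Foxp2 probe gave 0.09 ± 0.35 (SE). Within scan batch 1 the lead probe gave -0.59 ± 0.20 (SE; limma unadjusted p = 0.0134, adjusted p = 0.701), on 3 stimulated and 2 sham animals.

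Rorb had the narrowest bounds of the genes higher in cortex, its 6 iTBS estimates running from -0.07 to 0.17 with 95% bounds of -0.40 to 0.47. Cux2 ran from -0.03 to 0.39, the highest in AU cortex, where its signal was 0.03, -0.42, -0.28 and -0.88 in sham and -0.27, 0.85, 0.33, -0.54 and -0.34 in stimulated animals. The groups overlapped, and 2 of the 5 stimulated animals lay above every sham animal. Within scan batch 1 the Cux2 difference was 0.09 ± 0.21 (SE; 2 stimulated and 3 sham animals), and with the scan batch as a covariate it was 0.25 ± 0.21 (SE). Tbr1 ran from -0.37 to 0.45, Lamp5 from -0.30 to 0.43 and Rasgrf2 from -0.35 to 0.24. None of the other layer genes was called by limma for iTBS either. The lowest unadjusted p among them was that of Syt6, a synaptotagmin of layer 6 neurons, in AU cortex (1.08 ± 0.23 SE; limma adjusted p = 0.292). Otof, a gene of the upper layer list and among those not called, was reported by the study as raised by iTBS in cortex. That report was for young and aged animals and used the study's own selection rule.

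**Figure D3:**
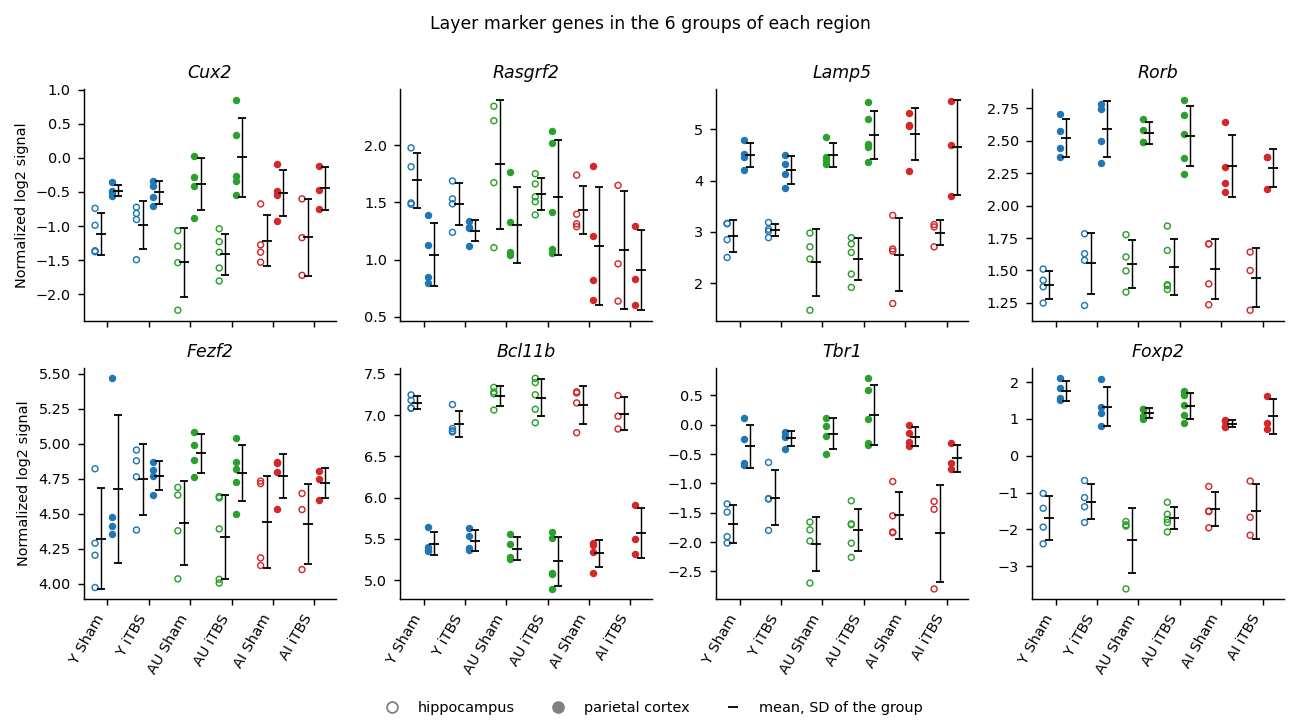
Normalized log2 signal of the 8 genes in the 6 groups of each region, with open points for hippocampus, filled points for parietal cortex and bars for the group mean and SD. The regions stay apart in every group for Bcl11b, Foxp2, Lamp5, Rorb and Tbr1, and the 8 aged sham animals lie below the 4 young sham animals for Foxp2 in cortex.

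Age was compared in sham animals, the mean of the AU and AI groups against the young. Foxp2 in cortex had the largest estimate. It was 1.56, 2.10, 1.52 and 1.85 in Y_Sham, 1.28, 1.09, 1.00 and 1.27 in AU_Sham, and 0.78, 0.96, 0.95 and 0.80 in AI_Sham. All 8 aged animals lay below all 4 young animals, and all 4 AI animals lay below all 4 AU animals. The age difference was -0.74 ± 0.21 (SE; 1.67-fold lower; limma unadjusted p = 0.00196), but it was not called over all probes (adjusted p = 0.277). The selection rule of the study called it, and it called 0.389% of all probes in this comparison. Foxp2 was the only 1 of the 8 genes to reach an unadjusted p under 0.05 for age, which 9.46% of all probes did, and limma called 0.104% of all probes. Aged and young sham animals did not overlap in cortex for 0.998% of probes, 0.556% being lower in aged animals.

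The other Foxp2 probe did not show this difference. It gave 0.03 ± 0.31 (SE), with values of -2.55, -1.35, -2.70 and -0.83 in Y_Sham and from -2.61 to -1.31 in the 8 aged sham animals. It was dim, and 1 young and 1 aged sham sample were not well above background. In stimulated animals the main Foxp2 probe was 1.34 ± 0.54 (SD, n = 4) in Y_iTBS, 1.36 ± 0.36 (SD, n = 5) in AU_iTBS and 1.07 ± 0.47 (SD, n = 3) in AI_iTBS, and these groups overlapped. The aged minus the young iTBS effect on Foxp2 in cortex was 0.62 ± 0.30 (SE; limma unadjusted p = 0.0509, adjusted p = 1.00), an estimate that shares its sham animals with the age difference. In order of group mean, Foxp2 in cortex was highest in Y_Sham (1.76 ± 0.27 SD, n = 4), followed by AU_iTBS, Y_iTBS, AU_Sham (1.16 ± 0.14 SD, n = 4), AI_iTBS and AI_Sham (0.87 ± 0.10 SD, n = 4). Neighbors in this order overlapped in their values, and a gap without overlap was seen only between groups further apart.

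Within scan batch 1 the age difference of Foxp2 was -0.67 ± 0.18 (SE). Markers of other cells that express Foxp2 were read beside it. The mean signal of 7 striatal genes in cortex ran from 2.58 to 3.72 in Y_Sham, from 3.36 to 3.86 in AU_Sham and from 3.63 to 3.83 in AI_Sham, and none of the 7 was called for age. That of the 2 thalamic genes with a probe, Slc17a6 and Prkcd, ran from 4.45 to 4.78, from 3.92 to 4.97 and from 4.31 to 5.08 in the same order. The striatal genes Rgs9 (2.10 ± 0.93 SE) and Ppp1r1b (0.57 ± 0.26 SE) had an unadjusted p under 0.05, both with a higher mean in aged animals. The 4 astrocyte genes had a mean signal of 5.74 to 6.46 in Y_Sham, 6.24 to 6.64 in AU_Sham and 6.23 to 6.66 in AI_Sham. Of these, Gfap (0.82 ± 0.28 SE) and Aldh1l1 (0.61 ± 0.20 SE) had an unadjusted p under 0.05 for age, and neither was called. The part of other cell types in the Foxp2 value was not tested. None of 10 other layer 6 and 6b genes was called for age in cortex, and their median difference was -0.11 against -0.01 for all probes.

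The other 7 layer genes showed no difference by age that passed the test. In cortex the estimates of their lead probes ran from -0.09 to 0.21, the highest being that of Lamp5. The second probe of Bcl11b gave 0.46 ± 0.29 (SE) in cortex, where the lead probe gave -0.09 ± 0.14 (SE), and 0.41 ± 0.31 (SE) in hippocampus, where the lead probe gave 0.03 ± 0.11 (SE). In hippocampus the lead probes of all 8 ran from -0.44, again for Lamp5, to 0.14 for Rorb, with a smallest adjusted p of 0.632 (limma), where 0.00308% of all probes were called by limma, 0.19% by the rule of the study and 0.465% had groups that did not overlap. Across the other layer lists no gene was called by age in either region. Rspo1 (1.39 ± 0.49 SE), Calb1 (-0.42 ± 0.18 SE) and Lhx2 (-0.37 ± 0.16 SE) had an unadjusted p under 0.05 in cortex.

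AI and AU sham animals were compared to see whether cognitive status went with any of these genes. None of the 8 was called in either region by limma, as no probe was, or by the rule of the study, which called 0.111% of probes in hippocampus and 0.181% in cortex. That rule could not call Cux2 and Tbr1 in either region or Foxp2 in hippocampus, their mean z-scores being below 0. Groups that did not overlap were seen for 1.3% of probes in hippocampus and for none of the 8 genes. In hippocampus, Foxp2 was -1.91, -1.79, -3.62 and -1.87 in AU_Sham and -1.51, -1.50, -0.83 and -1.96 in AI_Sham. The estimate of 0.84 ± 0.39 (SE; limma adjusted p = 1.00) rested on the third AU_Sham animal, without which it was 0.40. The groups overlapped, and that animal was the single hippocampus sample in which Foxp2 was not well above background. In the same animals the mean signal of 6 choroid plexus genes ran from 0.20 to 1.37 in AU_Sham and from 0.60 to 3.29 in AI_Sham, and that of the thalamic genes from 3.26 to 4.89 and from 4.38 to 5.30. Their part in the Foxp2 value was not tested. In cortex, Foxp2 was lower in AI than in AU sham animals by an estimate of -0.29 ± 0.24 (SE), with groups that did not overlap, as was so for 3.53% of all probes, 1.61% being lower in AI animals.

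The layer genes were also set against each other across the 24 cortex samples, with the group means taken out. These correlations are descriptions over samples that share the array, the dissection and the scan batch. Cux2 and Rasgrf2 varied together most closely (r = 0.81, n = 24), and r was 0.56 over the 15 animals of scan batch 1. Cux2 and Tbr1 gave r = 0.62, and 0.70 within batch 1. These are the genes whose upstream sequences are shown above. Bcl11b ran opposite to Tbr1 (r = -0.67), Cux2 (r = -0.62) and Lamp5 (r = -0.56), and it varied with Foxp2 (r = 0.53). Lamp5 and Rorb, both upper layer genes that were higher in cortex, ran opposite to each other (r = -0.67, the same within batch 1). The genes of 1 layer class therefore did not vary as 1 block. Rasgrf2 and Cux2 were higher in cortex samples scanned later, with mean deviations from the group means of 0.23 ± 0.39 (SD, n = 9) and 0.23 ± 0.34 (SD, n = 9) against -0.14 ± 0.22 (SD, n = 15) and -0.14 ± 0.23 (SD, n = 15) in batch 1. So were Lamp5 (0.24 ± 0.37 SD against -0.15 ± 0.37 SD) and Foxp2 (0.16 ± 0.38 SD against -0.09 ± 0.21 SD). Fezf2 (-0.11 ± 0.14 SD against 0.07 ± 0.24 SD) and Rorb (-0.10 ± 0.10 SD against 0.06 ± 0.17 SD) were lower in later samples.

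**Figure D4:**
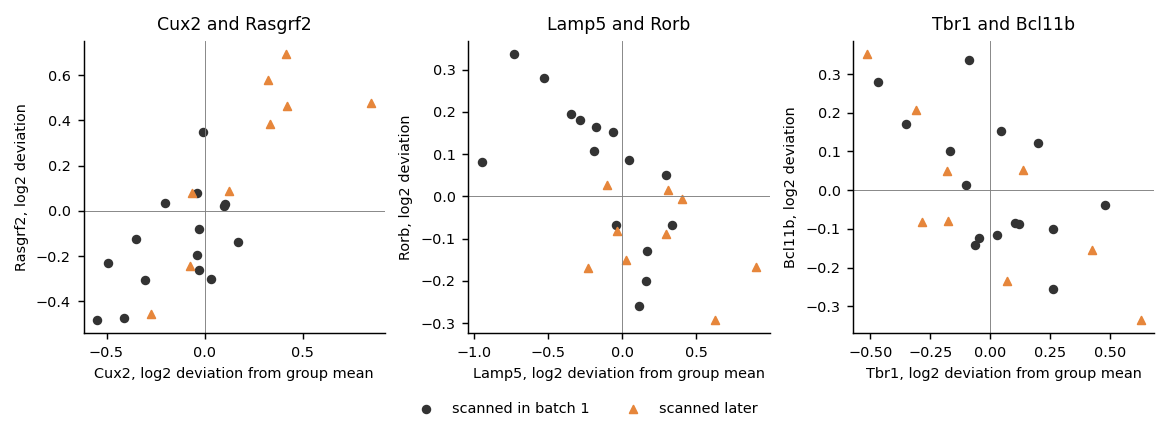
Deviation from the group mean of normalized log2 signal in the 24 cortex samples for 3 pairs of layer genes, with circles for samples of scan batch 1 and triangles for those scanned later. Cux2 and Rasgrf2 rise together with most later samples at the upper right, and Lamp5 falls with Rorb and Tbr1 with Bcl11b.

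Lists of other genes were followed across the same samples. The mean of 6 oligodendrocyte genes ran opposite to Rasgrf2 and Cux2 (r = -0.61 and -0.54), as did the 7 hippocampus genes (r = -0.57 and -0.51). For Foxp2 the list furthest from 0 was that of 4 astrocyte genes (r = -0.65). For Fezf2 it was that of 4 microglia genes (r = -0.84, Spearman's rho = -0.69), a value that leaned on the fourth Y_Sham animal. That animal had the highest Fezf2 (5.47) and a microglia mean of 3.27, against 4.89 to 5.40 in the other Y_Sham animals, and without it r was -0.45 (n = 23; left out after its values were seen). The named gene whose cortex pattern was most like each member, by Pearson's r over 24 animals, was Phf12 for Cux2 (0.92), Sema4f for Rasgrf2 (0.90), Polr2c for Lamp5 (0.90), Wbp11 for Rorb (0.86), Tmem205 for Fezf2 (0.89), Banp for Bcl11b (0.86), Ppp2r5b for Tbr1 (0.93) and Strn3 for Foxp2 (0.91). Each was the highest of all tested probes with a gene name, so that a high value was bound to be found.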

How the data were processed

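Total RNA from hippocampus and parietal cortex was labeled with 1 dye and hybridized by the authors to Agilent SurePrint G3 rat arrays, and images were read with Agilent Feature Extraction 12.0.3.1. The deposited scanner files hold, per spot, the processed signal intensity (after background subtraction), median spot and background intensity and quality flags, with no normalization between arrays. The authors also deposited a table of z-scores, a score per spot and array, which matched the z-score of log signal over all spots of an array, controls included, within 0.005.

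Groups came from array titles. Of 56 arrays, 48 were first arrays of an animal and region, and 6 technical repeats were averaged with them. A repeat of the second AI_iTBS cortex was used only in an alternative, because it did not match its own animal. Over 500 variable probes it correlated with AI_Sham animal 2 (r = 0.75) and not with its own animal (r = 0.02). Whether the repeat or the first cortex arrays of these animals carry a wrong label was not tested. Both first arrays were kept as labeled in the AI comparisons and in the pairing of regions. The remaining array was put in no group, since its title and description name different groups.

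Flagged spots (267 to 1448 per array) were left out and copies of a probe averaged. Log2 processed signal was turned into a z-score per array, as the authors did, but over the non-control probes only. It was then put back on a log2 scale with a factor of 4.08, the average SD over arrays. Transcripts were named through RefSeq (GRCr8), which gave a symbol to 46.3% of probes. Probes well above background in at least 3 of 24 animals were tested with limma 3.58.1 (R 4.3.3): 6 group means, eBayes with 18 residual degrees of freedom, Benjamini-Hochberg adjustment over all tested probes, two-sided, called at adjusted p under 0.05. Regions were compared through cortex minus hippocampus within each animal, the animal being given by the labels. The scripts were tested on simulated data. Alternatives were 75th percentile and quantile scaling, normexp correction (offset 50, on median spot intensity because mean intensity was not among the columns used here), the authors' z-scores, other filters, other treatment of repeats, slide and scan batch terms, replicate blocks, leaving out each animal, and the selection rule of the study (analysis of variance, z-test, false discovery rate under 0.3, absolute z-ratio over 1.5, mean z-score above 0). Arrays give no counts, so their number limits the precision.

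The 9 genes were described by a fixed rule that took all their named probes, the lead probe being that with the highest mean signal over both regions. Other layer genes were named where called or where they had the largest difference in their list. Syt6 for iTBS, and Calb1 and Lhx2 for age, were named after their values were seen. Otof was named because the study reported it. Results that need 1 further gene of these lists are not reported here. The members, lists and tests were chosen with earlier results of these data known.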

Additional observations from a re-analysis of the deposited data

Results flagged for a closer look

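Of 80 sets of 4 or 5 animals tested (8 genes, 2 regions, groups of 4 or more), 4 held an animal set apart from the others by Dixon's test, and chance flags about 1 in 20. Fezf2 in cortex was 5.47 in the fourth Y_Sham animal and 4.35 to 4.48 in the other three. Foxp2 in hippocampus was -3.62 in the third AU_Sham animal and -1.91 to -1.79 in the others. Bcl11b in cortex was 5.65 in the second Y_Sham animal and 5.36 to 5.40 in the others. Bcl11b in hippocampus was 7.13 in the first Y_iTBS animal and 6.80 to 6.84 in the others.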

How the results depend on the processing

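The 8 genes called between regions were 6 to 8 under 12 alternatives and 7 to 8 when each of the 24 animals was left out in turn. The 6 came from the filter on a mean z-score above 0, which took Cux2 and Tbr1 out of the test. Every region difference kept its direction under all alternatives run. Rasgrf2 alone lost its call (-0.29 with the slide of the cortex array as a random block, -0.25 without the second AI_iTBS animal). For all iTBS, age, cognitive status and interaction comparisons the count of called genes stayed at 0 under every alternative and without any animal, except that the selection rule of the study called 1 gene, Foxp2, for age in cortex. Genes without a mean z-score above 0 could not be called by that rule. Foxp2 for age in cortex ran from -0.88 to -0.66 over 12 alternatives (adjusted p 0.168 to 0.441) and from -0.82 to -0.63 when animals were left out (adjusted p 0.190 to 0.588).

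The labels do not say that a replicate number marks a shared batch, but the animals numbered 1 shared a slide and a scan in each region in all 6 groups, so the number goes in part with the slide. The correlations of the deviations of same-numbered sham and iTBS animals ran from -0.39 to 0.57, and in AI cortex all 3 were over 0.1 (0.32 to 0.57). With the replicate number as a block, 0 genes were called in each of the within-region comparisons, as without it, and over all probes the block moved the age comparison in cortex from 34 to 54 called. Without the pairing of the regions by animal (no replicate block), all 8 genes were called. With the slide of the cortex array as a random block, 10118 probes in place of 16690 were called between regions. The slide of the hippocampus array was not in that fit.

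Within scan batch 1 and with the scan batch as a covariate, none of the 48 iTBS estimates was called, and 1 and 2 of them had an unadjusted p under 0.05. These were Foxp2 in young cortex within batch 1, and Fezf2 in young and Tbr1 in AU hippocampus with the covariate.

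Dim probes limit Foxp2 most, since its second probe was at or near background.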

Other observations

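The array whose title and description name different groups gave hippocampus signals of 7.05 for Bcl11b, 4.57 for Fezf2, 2.96 for Lamp5, 1.76 for Rorb, 1.71 for Rasgrf2, -1.25 for Cux2, -1.48 for Tbr1 and -1.80 for Foxp2. Each lay within the range of the 24 hippocampus samples. Over 6 technical repeats and 8 genes, a repeat differed from its first array by a median of 0.09 and at most 0.69 in log2 units.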
